A study of Mus musculus with 32 samples.

Results

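Solute carriers (Slc genes) are membrane proteins that move nutrients, metals, ions and metabolites into cells, out of them and between their compartments. The 137 genes described here were chosen by their RNA level: the symbol begins with Slc and a digit, and the deposited TPM (a length-adjusted share of a library's transcripts), averaged over all 16 RNA-seq libraries, reached 5. They came from 376 Slc rows among 24940 genes in the deposited table, of which 197 reached a mean of 1 TPM and entered the tests. Their levels are therefore given as a description. Of the 137, 5 are only named for a carrier (Slc2a4rg-ps, Slc9a3r1, Slc9a3r2, Slc7a6os and Slc4a1ap) and stay in every count. Members close inside the threshold included Slc26a10 at 5.38 TPM and Slc35a1 at 5.17 TPM, and just outside it were Slc25a16 at 4.89 TPM, Slc16a7 at 4.83 TPM and Slc6a8 at 4.79 TPM.

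The study profiled 4 kinds of cell sorted from mouse lung: alveolar macrophages (AM), interstitial macrophages (IM), monocytes called inflammatory (iMo) and monocytes called patrolling (pMo). Each came from 2 inbred strains, DBA2J and C57BL6J, with 2 RNA-seq and 2 ATAC-seq libraries for each of the 8 combinations; ATAC-seq reads open chromatin. Lungs were digested and cells were sorted on surface proteins such as SiglecF, CD64, CD11c and Ly6c. The labels list no treatment for any sample, although the series title calls the cells activated. They give no age, and they do not say whether the replicates of a group are separate animals, so the p-values below speak only of the spread among these libraries, which may be technical.

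Carriers of the plasma membrane set what a cell takes up or exports, while carriers of lysosomes, mitochondria, the endoplasmic reticulum and the Golgi apparatus supply or empty those compartments. Macrophages ingest dying cells, red blood cells and microbes. Their metal carriers are known for recycling iron and for withholding metals from ingested microbes, and their amino acid carriers for supplying arginine and glutamine.

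Whole reads recovered from the TPM values put the libraries at 6676151 to 22616612 reads, or 5936096 to 15886152 without the ribosomal entries Rn45s and Mir6236. These entries took 22.6 to 67.6% of the TPM sum, and 64.3 to 67.6% in AM, so levels below are TPM divided by median-of-ratios size factors and are called scaled TPM. The defining markers followed the labels: Siglecf was 162 to 368 scaled TPM in AM and at most 67.4 elsewhere, and C1qa was 577 to 1516 in IM and at most 33.3 elsewhere. Ly6c2 was 286 to 500 in iMo and at most 115 elsewhere, and Ace was 1077 to 1549 in pMo and at most 437 elsewhere. IM libraries also held neutrophil transcripts. The 8 listed neutrophil markers summed to 2211 to 3781 scaled TPM in IM and to at most 206 in the other libraries, with S100a8 at 922 to 1179 and Ly6g at 0.206 to 1.77 in IM; their part in the IM results was not tested. C57BL6J IM replicate 2 stood apart, with C1qa at 1516 and Siglecf at 67.4. In bulk libraries, fewer cells of a type and less RNA per cell cannot be told apart.

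Carrier RNA was spread over all 4 cell types. The mean of a member over the 16 libraries ran from 4.91 to 176 scaled TPM, with a median of 15.8, and the median member had 16.6 scaled TPM in AM and 14.2 in IM, while the monocyte medians were 14.3 (iMo) and 12.7 (pMo). The 12 members with the highest mean were Slc11a1 (phagosomal metals), Slc44a2 (choline transporter-like), Slc25a3 (mitochondrial phosphate), Slc39a7 (zinc of the endoplasmic reticulum), Slc25a5 (mitochondrial ADP/ATP exchange), Slc25a11 (mitochondrial oxoglutarate), Slc29a1 (nucleosides), Slc2a6 (hexoses), Slc16a3 (lactate), Slc38a2 (neutral amino acids), Slc25a45 and Slc35c2. The highest member was Slc29a1 in AM, at 239 scaled TPM, and Slc11a1 in IM, iMo and pMo, at 152, 198 and 352. On the scale as deposited, 93 members reached 5 TPM in all 4 cell types, 28 in 3 types, 12 in 2 types and 4 in 1 type. Those 4 were Slc40a1, Slc2a3, Slc6a4 and Slc9a4. Over the 12 libraries outside their highest type, 12 members averaged under 5 TPM as deposited, among them these 4 and Slc39a2, Slc52a3, Slc7a5 and Slc28a2. Such members passed only through the type where they are high and so had to be higher there; their differences are given as a description, with no test. The ratio of the highest to the lowest type mean, each plus 1, was under 1.5 in 23 members, over 4 in 27 and over 16 in 12. TPM were computed per genomic span, introns included, and members spanned a median of 17837 bp, against 30533 bp for the 239 other Slc rows.

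**Figure D1:**
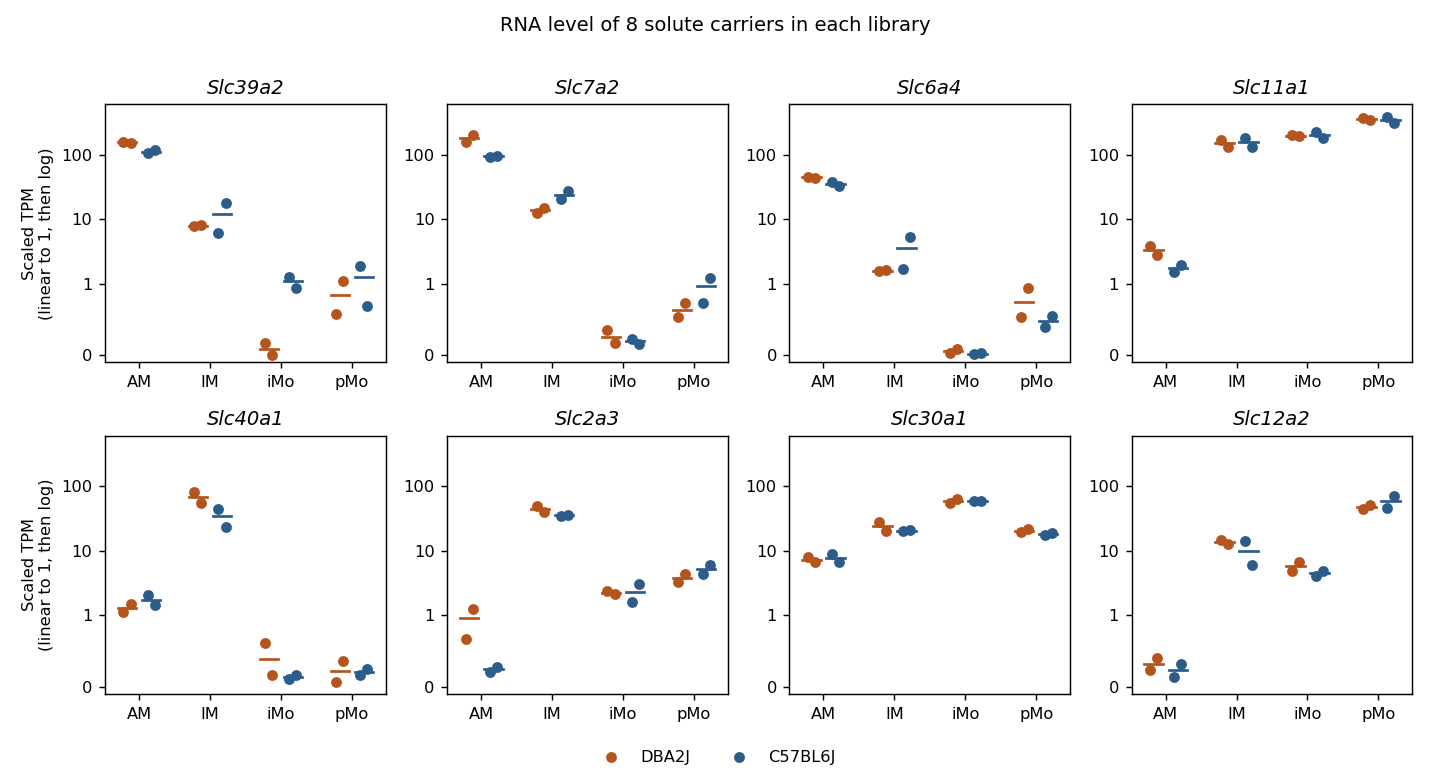
Scaled TPM of 8 carriers in each of the 16 libraries, by cell type on the x axis, with DBA2J left of C57BL6J, 1 point per library and a line at each group mean; the y axis is linear to 1 and logarithmic above it. Slc39a2, Slc7a2 and Slc6a4 are highest in AM, where Slc11a1 has 1.51 to 3.89 scaled TPM; Slc40a1 and Slc2a3 are highest in IM, Slc30a1 in iMo and Slc12a2 in pMo.

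Metal carriers held the member with the widest difference between AM and IM. Slc11a1, which moves divalent metals out of the phagosome and is known for resistance to intracellular microbes, had 3.89 and 2.73 (DBA2J) and 1.51 and 1.93 (C57BL6J) scaled TPM in AM. In IM it had 166 and 131 (DBA2J) and 179.9 and 129 (C57BL6J), in iMo 201 and 192 (DBA2J) and 221 and 179.5 (C57BL6J), and in pMo 375 and 339 (DBA2J) and 385 and 308 (C57BL6J). Every AM library lay below every library of the other types, and AM minus IM was -5.47 ± 0.15 on the log2 scale (± SE, limma, adjusted p = 1.72e-09). C57BL6 mice are known to carry a loss-of-function allele of Slc11a1; its RNA was not called different between DBA2J and C57BL6J (log2 difference 0.16 ± 0.10, limma, adjusted p = 0.366).

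Slc40a1, ferroportin, exports iron from the cell. It had 1.12 to 2.02 scaled TPM in AM, while IM had 80.7 and 54.8 (DBA2J) and 44.9 and 23.2 (C57BL6J), and levels were 0.115 to 0.612 in iMo and 0.0686 to 0.363 in pMo. Every IM library lay above every library of the other types, and the log2 difference of AM minus IM was -4.25. The zinc importer Slc39a2 ran the other way, with 158 and 153 (DBA2J) and 105 and 118 (C57BL6J) scaled TPM in AM, against 7.86 and 8.04 (DBA2J) and 6.11 and 17.8 (C57BL6J) in IM. Its levels were 0 to 1.28 in iMo and 0.580 to 1.86 in pMo, so that AM lay above all others; AM minus IM was 3.70. Slc30a1, which exports zinc across the plasma membrane, had 6.62 to 8.70 scaled TPM in AM and 20 to 27.6 in IM. It peaked in iMo at 55.2 and 63.9 (DBA2J) and 57.9 and 57.8 (C57BL6J), and pMo had 17.4 to 21.6. AM minus IM was -1.44 ± 0.12 and iMo minus pMo was 1.56 ± 0.12 (limma, adjusted p = 2.55e-06 and 9.08e-06). The span of Slc30a1 overlaps that of 1700034H15Rik by 747 bp on the opposite strand.

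Other metal members also differed between AM and IM. The heme carrier Slc48a1 averaged 112 ± 5.22 scaled TPM in AM and 41.7 ± 15.5 in IM (SD, n = 4 each). The zinc importer Slc39a1 averaged 108 ± 6.87 in AM and 50.6 ± 8.79 in IM, and the magnesium carrier Slc41a1 averaged 25.1 ± 4.46 in AM and 8.07 ± 2.35 in IM. These 3 were called higher in AM, although Slc39a1 was not called on the scale as deposited. The copper importer Slc31a1 averaged 2.96 ± 0.567 in AM and 8.64 ± 0.853 in IM, and Slc11a2, the endosomal iron carrier, averaged 4.02 ± 0.214 in AM and 6.45 ± 0.602 in IM; both were called lower. Of the 20 metal members, 8 were called higher and 6 lower in AM than in IM, which is 70% called, near the 66.3% of genes at 5 TPM or more (35.8% higher and 30.5% lower). On the scale as deposited the split was 4 and 13, where 9.67% of those genes were higher and 63.6% lower. In a list of genes that handle iron and other metals, 9 of 15 tested were higher and 6 lower in AM, against 31.6% and 30.0% of all genes tested. As deposited this list held 5 higher and 6 lower, against 9.19% and 61.1% of all genes. The metallothioneins Mt1 (678 scaled TPM in AM, 99.7 in IM) and Mt2 (190.4 in AM, 25.1 in IM), which bind zinc and copper, and the ferritin subunit Fth1 (6399 in AM, 1961 in IM), which stores iron, were higher. The hemoglobin scavenger receptor Cd163 (0.121 in AM, 96.1 in IM) and the transferrin receptor Tfrc (2.90 in AM, 12 in IM) were lower.

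The promoters of 3 metal carriers with opposite patterns are shown: Slc39a2, highest in AM, Slc30a1, highest in iMo, and Slc11a1, lowest in AM. Each is the 250 bases before the RefSeq start (build GRCm38.p6, plus strand, on which all 3 genes lie), at chr14:51893360-51893609 for Slc39a2, chr1:191906531-191906780 for Slc30a1 and chr1:74374953-74375202 for Slc11a1. Capitals mark matches, on either strand, to AGGAAG (a core bound by ETS factors such as PU.1), TGCACNC (metal-response element) and TGACNNNGC (antioxidant-response element).
Slc39a2: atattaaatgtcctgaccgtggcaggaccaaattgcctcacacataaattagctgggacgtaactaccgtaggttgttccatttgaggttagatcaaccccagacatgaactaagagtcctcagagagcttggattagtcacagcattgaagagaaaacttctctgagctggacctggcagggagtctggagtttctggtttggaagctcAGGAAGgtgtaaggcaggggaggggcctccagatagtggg
Slc30a1: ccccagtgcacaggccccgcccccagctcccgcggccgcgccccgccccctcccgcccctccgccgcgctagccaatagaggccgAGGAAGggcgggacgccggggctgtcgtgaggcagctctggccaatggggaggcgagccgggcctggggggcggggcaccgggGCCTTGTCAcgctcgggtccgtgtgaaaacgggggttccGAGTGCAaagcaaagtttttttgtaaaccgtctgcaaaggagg
Slc11a1: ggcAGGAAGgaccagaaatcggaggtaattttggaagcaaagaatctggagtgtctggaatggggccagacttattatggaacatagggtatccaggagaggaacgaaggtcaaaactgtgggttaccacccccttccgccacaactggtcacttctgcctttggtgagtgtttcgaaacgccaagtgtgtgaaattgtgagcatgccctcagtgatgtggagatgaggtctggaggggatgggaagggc
All 3 held AGGAAG, and Slc30a1 also held the other motifs. RefSeq gave 134 promoters for 100 of the members, each read over 300 bases. AGGAAG was in 31.3% of these promoters, against 35.4% of all promoters and 35.3% of promoters of genes at 5 TPM or more. TGCACNC was in 14.2%, against 12.6% and 12.3%, and TGACNNNGC in 19.4%, against 12.4% and 14.7%. TGCGCNC, a second form of the metal-response element that was scanned, was in 21.6%, against 15.4% and 25.8%. Other motifs were scanned and are not given here. A match is a description of letters and no binding site.

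Carriers of amino acids and amines included members with nearly no RNA in monocytes. Slc7a2, which imports arginine and other cationic amino acids, had 159 and 200.2 (DBA2J) and 90.8 and 96.8 (C57BL6J) scaled TPM in AM, against 12.6 and 15 (DBA2J) and 20.4 and 27.2 (C57BL6J) in IM. Monocyte levels were 0.163 to 0.350 in iMo and 0.538 to 1.21 in pMo, and macrophages minus monocytes was 5.07 on the log2 scale, the largest of any member in that comparison. Slc7a2 reached 5 TPM only through macrophages, so that difference is a description too. Slc6a4, the serotonin transporter, belongs to a family that carries amino acids and monoamines. It had 45.3 and 43.9 (DBA2J) and 38 and 32.1 (C57BL6J) scaled TPM in AM, against 1.57 and 1.62 (DBA2J) and 1.70 and 5.36 (C57BL6J) in IM, with 0.0196 to 0.0874 in iMo and 0.398 to 0.940 in pMo. AM lay above all other libraries, and AM minus IM was 3.63 on the log2 scale.

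Slc7a5, the light chain of an exchanger of large neutral amino acids, averaged 16.8 ± 8.82 scaled TPM in AM and 5.01 ± 1.72 in IM (SD, n = 4 each). Its heavy chain Slc3a2 averaged 111 ± 17.1 in AM and 93.9 ± 35.2 in IM and was not called (log2 difference 0.28 ± 0.18, limma, adjusted p = 0.185). Macrophages minus monocytes was 1.19 ± 0.13 for Slc3a2 (limma, adjusted p = 1.42e-05). Among lysosomal carriers, Slc15a3, which moves peptides and histidine, averaged 176 ± 11 in AM and 54.9 ± 8.72 in IM, and Slc36a4 averaged 30.4 ± 1.93 in AM and 8.93 ± 2.23 in IM; both were called higher in AM. Of the 19 members that carry amino acids or amines, 8 were called higher and 5 lower in AM than in IM. That is 68.4% called, near the 66.3% of genes at 5 TPM or more. The split was 5 and 11 on the scale as deposited, where 9.67% of those genes were higher and 63.6% lower. Of 14 tested genes of amino acid and glutathione use, 3 were higher and 5 lower in AM (57.1% called, against 61.6% of all genes tested). As deposited 2 were higher and 9 lower, against 9.19% and 61.1% of all genes tested. Glul, glutamine synthetase, averaged 259.8 scaled TPM in AM and 115 in IM, and the arginase Arg2 averaged 0.991 in AM and 19.8 in IM.

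Some glucose and lactate carriers peaked outside AM. Slc2a3, a high-affinity glucose transporter, had 0.212 to 1.25 scaled TPM in AM, 49.8 and 39.6 (DBA2J) and 34.9 and 36.3 (C57BL6J) in IM, 1.57 to 3.07 in iMo and 3.28 to 5.90 in pMo. Every IM library lay above every other, and AM minus IM was -4.71 on the log2 scale. Slc2a6, a hexose carrier of lysosomes, averaged 34.3 ± 22.7 scaled TPM in macrophages and 128 ± 38.3 in monocytes (SD, n = 8 each), a log2 difference of -2.16 ± 0.14 (limma, adjusted p = 3.34e-07). Slc16a3, which exports lactate, had 39 to 46.7 in AM, 50 to 83.6 in IM, 63.5 to 77.3 in iMo, and 163 and 139.9 (DBA2J) and 209.8 and 116 (C57BL6J) in pMo. Without C57BL6J pMo replicate 1, and on the scale as deposited, Slc16a3 no longer met the rule for restriction to pMo given below. Slc16a6, of the same monocarboxylate family, had 25 to 31 in AM, 40 to 47.1 in IM, 24.5 to 33.9 in iMo and 4.12 to 6.69 in pMo, the lowest type; its span overlaps that of Gm45916 by 2504 bp on the opposite strand. Of 11 sugar members, 3 were called higher and 4 lower in AM than in IM. That is 63.6% called, near the 66.3% of genes at 5 TPM or more. The split was 0 and 7 as deposited, where 9.67% of those genes were higher and 63.6% lower. Of 4 monocarboxylate members 1 was higher and 3 lower (100% called, against the same 66.3%). In the list of glucose and lactate genes, 6 of 13 were higher and 5 lower in AM (84.6% called, against 61.6% of all genes tested). The split was 0 and 9 as deposited, where 9.19% of all genes tested were higher and 61.1% lower. It was 2 and 7 without the ribosomal entries, where 20.86% were higher and 40.37% lower. Lactate dehydrogenase Ldha had 127 scaled TPM in AM and 58.2 in IM.

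Ion and pH carriers held members high in AM and one high in pMo. Slc9a4, a sodium-proton exchanger, had 27.7 and 30.1 (DBA2J) and 27.4 and 27.6 (C57BL6J) scaled TPM in AM, 2.54 to 4.59 in IM, 0.0534 to 0.271 in iMo and 0.120 to 0.312 in pMo. Slc12a7, which moves potassium and chloride outward, had 48.1 and 48 (DBA2J) and 48.6 and 47.8 (C57BL6J) in AM, against 5.29 and 6.85 (DBA2J) and 13.1 and 19.1 (C57BL6J) in IM. Both lay above all other libraries in AM. Slc12a2, which moves sodium, potassium and chloride inward, had 0.139 to 0.404 in AM, 6.0 to 14.6 in IM, 4.0 to 6.71 in iMo, and 43.9 and 50.7 (DBA2J) and 45.4 and 70.3 (C57BL6J) in pMo, the highest of all types. Of 13 ion members, 5 were called higher and 5 lower in AM than in IM. That is 76.9% called, against 66.3% of genes at 5 TPM or more. The split was 3 and 8 as deposited, where 9.67% of those genes were higher and 63.6% lower.

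Vitamin and nucleoside carriers included members highest in AM and members highest, by mean, in IM. The riboflavin importer Slc52a3 had 25.7 and 21.4 (DBA2J) and 52 and 44.4 (C57BL6J) scaled TPM in AM, against 1.09 to 10.7 in IM, with AM above all other libraries. The nucleoside carrier Slc29a1 had 258 and 224 (DBA2J) and 244 and 232 (C57BL6J) in AM, 63.4 to 142 in IM, 25.6 to 50.2 in iMo and 57.4 to 113 in pMo, so that AM was highest and iMo lowest by mean. The concentrative nucleoside carrier Slc28a2 had 0.0629 to 0.459 in AM, against 17.5 and 19.8 (DBA2J) and 14.2 and 9.15 (C57BL6J) in IM. Without C57BL6J IM replicate 1 or C57BL6J pMo replicate 1, Slc28a2 no longer met the rule for restriction to IM given below. The same held when 5 rather than 1 was added to scaled TPM before the log2.

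The split of mitochondrial and Golgi carriers between AM and IM depended on the scale used. The citrate carrier Slc25a1 averaged 100.2 ± 30.2 scaled TPM in AM and 35.7 ± 14.8 in IM (SD, n = 4 each). The ADP/ATP exchanger Slc25a4 averaged 48 ± 7.87 in iMo and 9.88 ± 1.04 in pMo, a log2 difference of 2.16 ± 0.22 (limma, adjusted p = 5.62e-05). Slc25a4 and Slc25a5 are close relatives, so the counting could have split their reads. Of 23 mitochondrial members, 11 were called higher and 3 lower in AM than in IM. That is 60.9% called, near the 66.3% of genes at 5 TPM or more (35.8% higher and 30.5% lower). The split was 3 and 13 on the scale as deposited, where 9.67% of those genes were higher and 63.6% lower. It was 8 and 7 without the ribosomal entries, where 23.59% of those genes were higher and 41.2% lower. The 16 members of the nucleotide-sugar family, which supply the Golgi apparatus and the endoplasmic reticulum, split 9 higher and 3 lower in AM. That is 75% called, against the same 66.3%, and the split was 1 and 8 as deposited, against the same 9.67% and 63.6%. Neither class therefore had a direction that held under every scaling. Among lipid carriers, the fatty acid transporter Slc27a1 averaged 37.8 ± 18.7 in macrophages and 4.34 ± 0.825 in monocytes (SD, n = 8 each), and Slc44a2 averaged 65.3 ± 49.1 in macrophages and 251 ± 68.3 in monocytes.

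**Figure D2:**
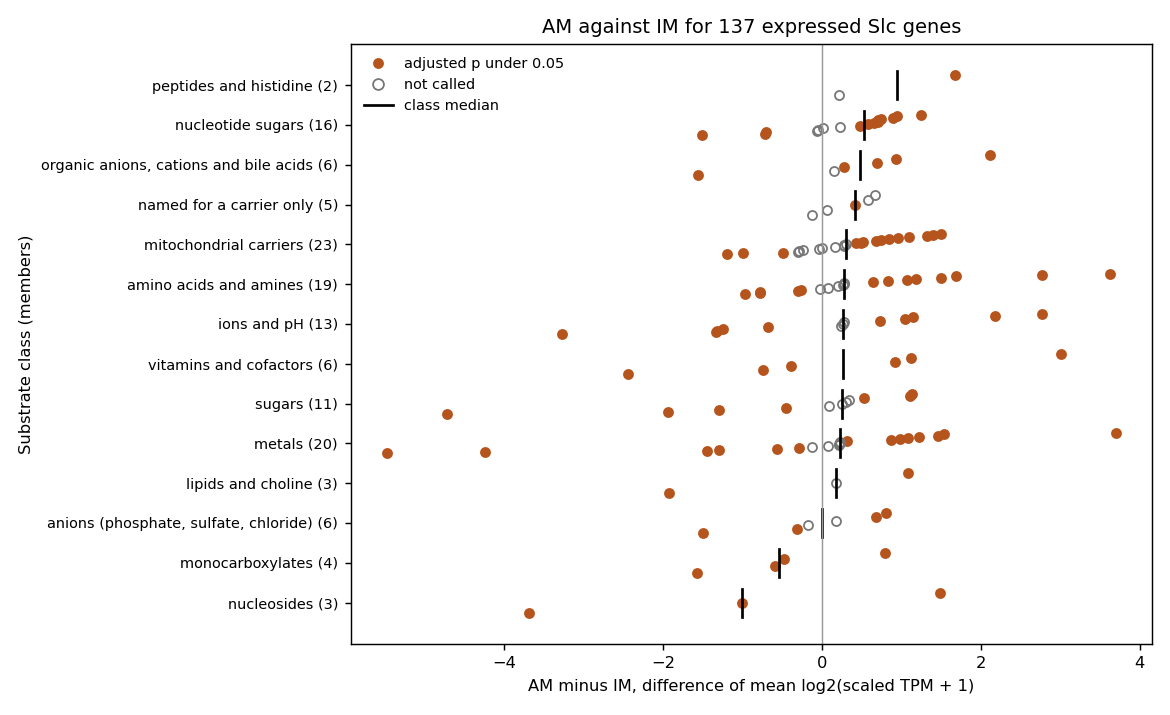
AM minus IM difference (log2 of scaled TPM + 1) of each of the 137 members, grouped by substrate class, classes sorted by median; filled points passed an adjusted p of 0.05 and a black bar marks the class median. Single members reach 3.70 (Slc39a2) and -5.47 (Slc11a1), and the balance of higher and lower members in a class shifts on the scale as deposited.

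AM against IM compares the lung's macrophages with each other. Of the 137 members, 96 were called (70.1%), against 61.6% of all genes tested and 66.3% of genes at 5 TPM or more. Higher in AM were 58 (42.3%, against 35.8% of genes at 5 TPM or more) and lower 38 (27.7%, against 30.5%). In 81 members the call came with libraries that did not overlap (59.1%, against 46.7% of genes tested and 52.2% of genes at 5 TPM or more). Members that passed only through AM, such as Slc39a2, or only through IM, such as Slc40a1, are in these counts. The counts are therefore given as a description. The balance depended on the scale. It was 20 higher and 80 lower as deposited, where the median of all genes was -0.68, 47 and 46 with the ribosomal entries left out, where that median was -0.25, and 56 and 39 after quantile normalization. Of genes at 5 TPM or more, 9.67% were higher and 63.6% lower as deposited. Those shares were 23.59% and 41.2% without the ribosomal entries, and 33.71% and 32.39% after quantile normalization. As deposited, 58 of the 96 members called kept direction and call, 18 lost the call and 20 changed sign.

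Inflammatory against patrolling monocytes gave 45 calls (32.8%), against 25.4% of genes tested and 28.7% of genes at 5 TPM or more. Higher in iMo were 25 (18.2%, against 15.3% of genes at 5 TPM or more) and lower 20 (14.6%, against 13.4%). The split was 41 and 9 as deposited, where 24.06% of those genes were higher and 6.67% lower. It was 20 and 24 without the ribosomal entries, where 11.41% were higher and 15.92% lower. In 32 members libraries did not overlap (23.4%, against 17.9% of genes tested and 20.2% of genes at 5 TPM or more). Log2 differences of the higher side included Slc16a6 (2.31 ± 0.11), Slc25a4 (2.16 ± 0.22), Slc30a1 (1.56 ± 0.12), the lysosomal nucleoside carrier Slc29a3 (1.51 ± 0.09) and the lysosomal amino acid carrier Slc36a1 (1.02 ± 0.12). Those of the lower side included Slc12a2 (-3.13 ± 0.23), Slc29a1 (-1.24 ± 0.19), Slc16a3 (-1.11 ± 0.18) and the zinc carrier Slc39a13 (-1.05 ± 0.16). Slc11a1 was lower in iMo too, at -0.82 ± 0.15. Emb, a chaperone of lactate carriers, averaged 47.7 scaled TPM in iMo and 17.2 in pMo.

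Macrophages against monocytes gave 101 calls (73.7%), against 55.3% of genes tested and 57.5% of genes at 5 TPM or more. Higher in macrophages were 47 (34.3%, against 22.6% of genes at 5 TPM or more) and lower 54 (39.4%, against 34.8%). As deposited the split was 36 and 62, where 14.55% of those genes were higher and 45.83% lower. In 22 members the libraries did not overlap (16.1%, against 8.68% of genes tested and 8.93% of genes at 5 TPM or more). The higher side led with Slc7a2 (5.07), Slc39a2 (4.40) and Slc9a3r2 (3.49), a scaffold protein named for a carrier, followed by Slc9a4 (3.26), Slc6a4 (3.16), Slc40a1 (3.15) and the lipocalin receptor Slc22a17 (3.10), in log2 units. Of these, Slc40a1 was high in IM and had 1.12 to 2.02 scaled TPM in AM. Every higher-side member named here averaged under 5 TPM as deposited in monocytes. They passed only through macrophages and so had to be higher there. Slc7a6, Slc22a15 and Slc26a10 passed only through monocytes. All of these are in the counts above, which are given as a description. The lower side held Slc11a1 (-3.54), Slc46a3 (-2.32), Slc44a2 (-2.25), Slc12a2 (-2.18) and Slc2a6 (-2.16). In the list of iron and metal genes, 9 of 15 were higher in macrophages and 1 lower, against 27.7% of all genes tested in each direction. The split was 9 and 1 as deposited too, against 18.93% and 35.86% of all genes tested.

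Restriction to 1 type meant a called log2 difference of at least 1 over each of the 3 other types. It was met by 27 members (19.7%), against 11.2% of genes at 5 TPM or more. AM had 20 (14.6%, against 7.40% of genes tested), IM 4 (2.92%, against 2.52%), iMo 1 (0.73%, against 0.806%) and pMo 2 (1.46%, against 1.33%). Of the 27, 8 averaged under 5 TPM as deposited outside that type, 5 of them restricted to AM. These 8 passed only through the type where they are high. The counts and shares are therefore given as a description. The AM members were Slc2a8, Slc5a3, Slc6a4, Slc6a6, Slc7a2, Slc7a5, Slc9a4, Slc12a7, Slc15a3, Slc22a17, Slc25a1, Slc27a1, Slc29a1, Slc35f6, Slc36a4, Slc38a7, Slc39a1, Slc39a2, Slc48a1 and Slc52a3. IM had Slc2a3, Slc28a2, Slc37a2 and Slc40a1, iMo had Slc30a1, and pMo had Slc12a2 and Slc16a3. Under all 26 alternatives 11 of the 27 stayed restricted: Slc6a4, Slc7a2, Slc9a4, Slc12a7, Slc22a17, Slc39a2 and Slc52a3 to AM, Slc2a3 and Slc40a1 to IM, Slc30a1 to iMo and Slc12a2 to pMo. Of these 11, 6 (Slc6a4, Slc9a4, Slc39a2, Slc52a3, Slc2a3 and Slc40a1) reached 5 TPM only through that type, so their restriction follows from how the members were chosen. On the scale as deposited 13 of the 20 AM members lost restriction. AM was lowest by the same measure for 14 members, among them Slc11a1, Slc2a6, Slc44a2 and Slc46a3. That is 10.2%, against 6.97% of genes tested and near the 8.89% of genes at 5 TPM or more. Slc5a3 shares 29138 bp of span with Mrps6 on the same strand, so reads of these genes cannot be told apart here.

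**Figure D3:**
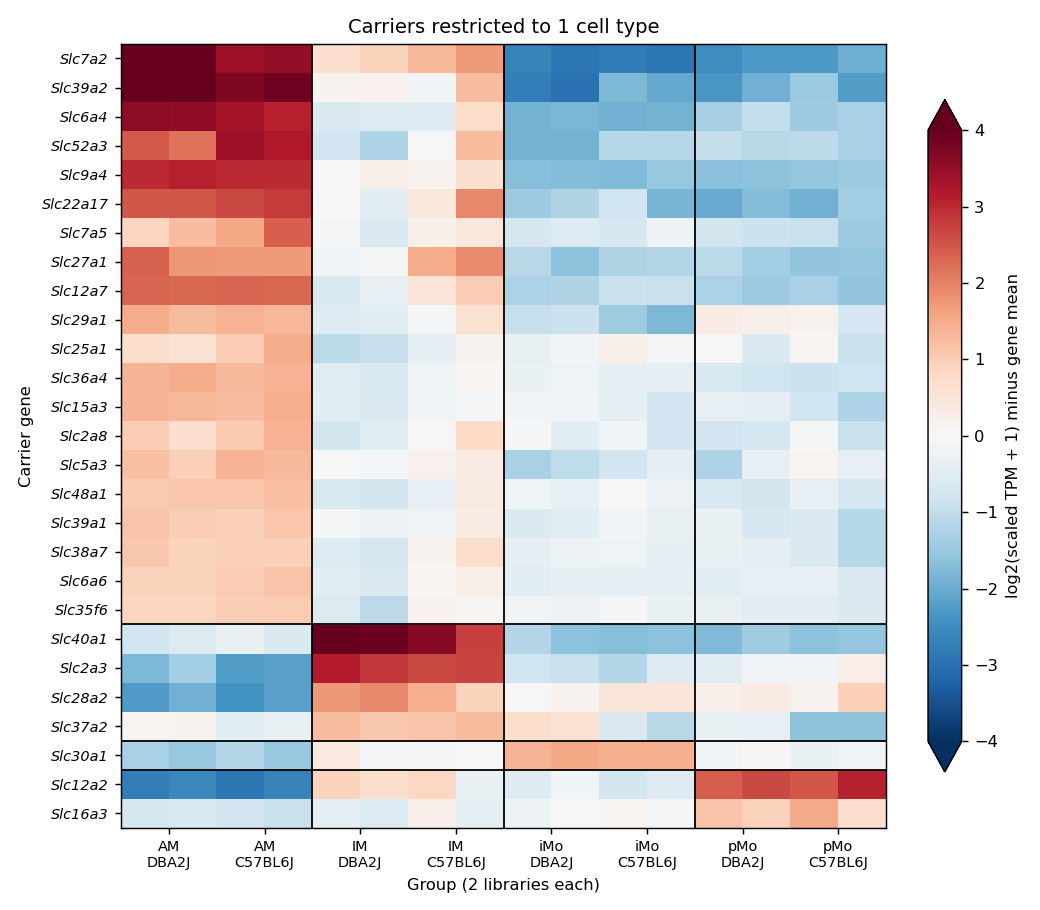
Carriers restricted to 1 cell type, 1 row per gene and 1 column per library (AM, IM, iMo and pMo from left, with DBA2J left of C57BL6J in each); color is log2(scaled TPM + 1) minus the gene's mean, red above it and blue below. The 20 AM-restricted genes form the top block, followed by those of IM, iMo and pMo.

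Open chromatin near the carriers was read from the authors' 8 peak lists, 1 per combination of cell type and strain, each from 2 ATAC-seq libraries. A peak within 1000 bp of the start was listed for 106 members in DBA2J AM (77.4%, against 75.4% of genes at 5 TPM or more). In C57BL6J AM it was listed for 100 (73.0%, against 69.4%). It was listed for 108 in DBA2J IM (78.8%, against 77.6%) and 121 in C57BL6J IM (88.3%, against 89.0%), the longest of the lists. In iMo the peak was listed for 111 members in DBA2J (81.0%, against 81.5%) and 109 in C57BL6J (79.6%, against 78.4%). In pMo it was listed for 110 in DBA2J (80.3%, against 78.4%) and 109 in C57BL6J (79.6%, against 82.2%). In all 8 lists 90 members had one (65.7%), against 60.2% of genes at 5 TPM or more. In no list did 15 members have one (10.95%, against 9.88%). A region listed in AM of both strains and in no other list, within 20 kb of the span, lay at 12 of the 20 AM-restricted members (60%) and at 21 of the 117 other members (17.9%). Over all genes tested it lay at 443 of 908 restricted to AM (48.8%) and at 1813 of 11369 others (15.9%). Slc9a4 had 4 such regions, Slc7a2 and Slc12a7 had 3 each, and Slc39a2 had 2. A peak at the Slc7a2 start was listed in both IM sets and DBA2J iMo but in neither AM set. The Slc5a3 start had one in every set except those of AM. A region of their own type only lay at 0 of 4 members restricted to IM, 0 of 1 to iMo and 0 of 2 to pMo. Among all genes so restricted, 8.74%, 2.02% and 3.07% had one. Slc16a3, restricted to pMo, had 1 region listed only in AM.

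The region nearest the start of Slc39a2, at -78 bp, was listed only in AM, with the authors' scores of 61.1 in DBA2J and 33.5 in C57BL6J; the scale of these scores is not stated in the sources used here. The promoter printed above holds that position. The region at -30 bp of Slc11a1 was listed in all 8 sets, with scores of 224.3 and 107.1 in DBA2J and C57BL6J AM and of 58.2 and 97.1 in DBA2J and C57BL6J IM. A listed start region thus stood in AM, where Slc11a1 RNA was lowest. The start region of Slc12a2, at -168 bp, was listed in 6 sets and in neither AM set.

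**Figure D4:**
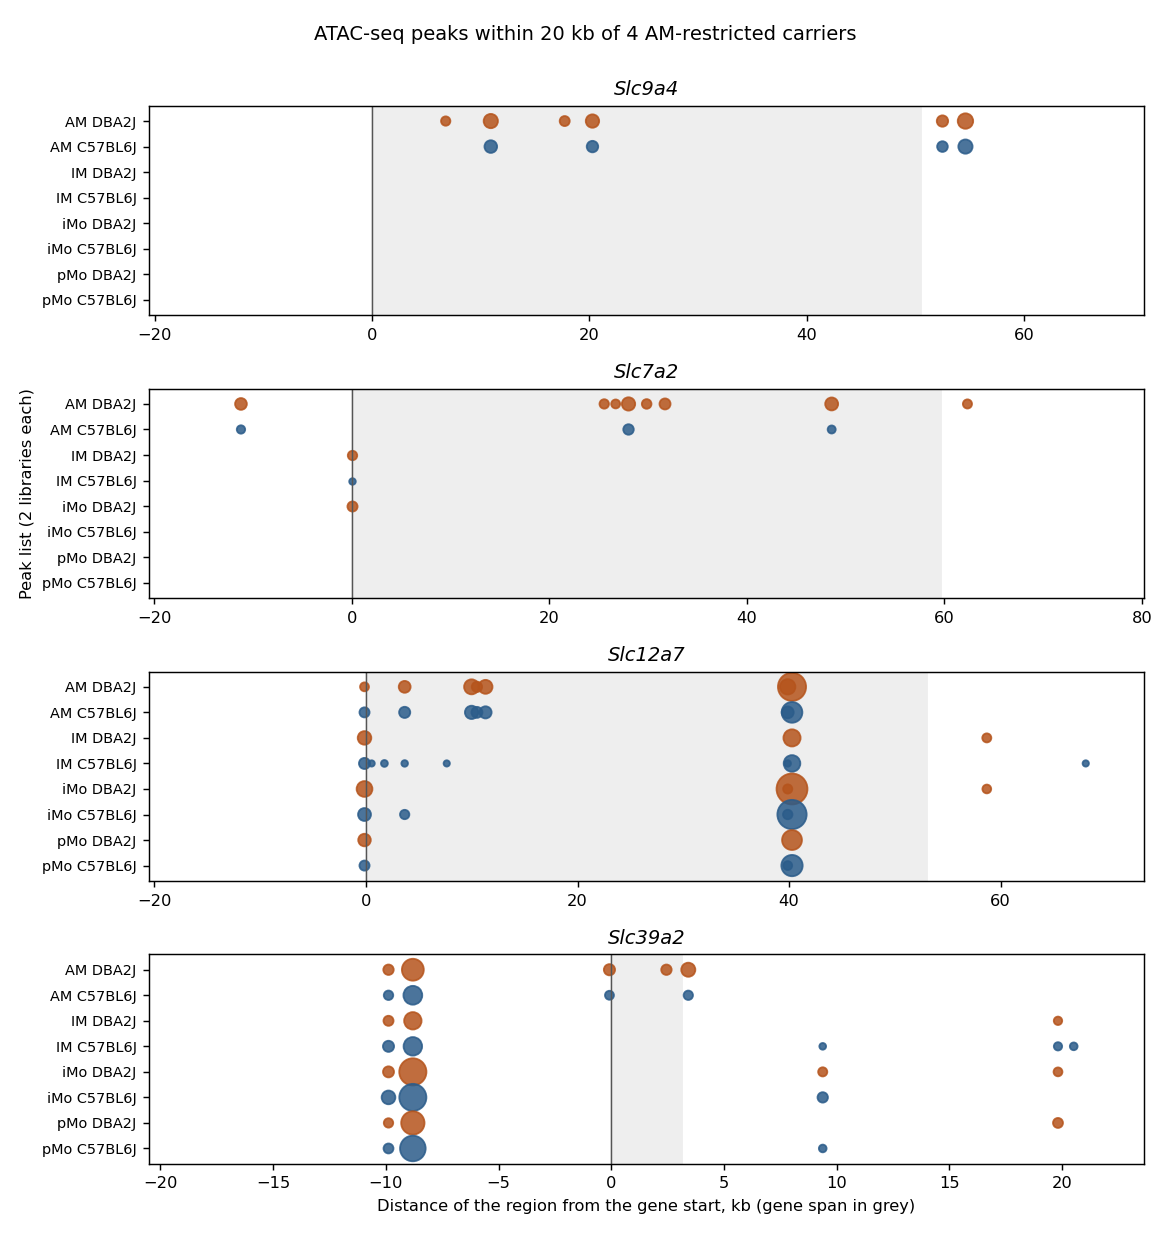
ATAC-seq peaks within 20 kb of 4 AM-restricted carriers, plotted by distance in kb from the gene start (grey band, gene span), 1 line per peak list from DBA2J AM at the top to C57BL6J pMo at the bottom; dot area grows with the authors' peak score. Slc9a4, Slc7a2, Slc12a7 and Slc39a2 have regions listed in AM of both strains and in no other list.

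DBA2J against C57BL6J asks how carrier RNA differs between the strains. Averaged over the 4 cell types, 14 members were called (10.2%), against 15.9% of genes tested and 15.9% of genes at 5 TPM or more. Higher in DBA2J were 5 (3.65%, against 8.74% of genes at 5 TPM or more) and lower 9 (6.57%, against 7.19%). None of the 14 had strains that did not overlap (0%, against 1.08% of genes tested and 0.97% of genes at 5 TPM or more). That check pooled the 4 cell types, so a difference between types can make the strains overlap whatever the strain difference. Slc37a2, a sugar-phosphate exchanger of the endoplasmic reticulum, had a log2 difference of 0.81 ± 0.08 and Slc7a8, a neutral amino acid exchanger, of 0.65 ± 0.08 (limma, adjusted p = 4.49e-05 and 3.12e-04). Slc52a3 had -0.81 ± 0.16 and Slc36a1 -0.71 ± 0.08 (limma, adjusted p = 0.00677 and 1.93e-04). The count of calls was 7 without C57BL6J AM replicate 2, 9 without C57BL6J AM replicate 1, DBA2J IM replicate 2 or DBA2J iMo replicate 2, and 26 without C57BL6J IM replicate 1.

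Within cell types, 8 members were called in AM (5.84%, against 5.26% of genes tested), 22 in IM (16.1%, against 13.1%), 4 in iMo (2.92%, against 4.16%) and 7 in pMo (5.11%, against 5.78%). These counts rest on single libraries: leaving out any 1 of the 4 AM libraries gave 2 or 3 calls in AM and 4 in pMo. In pMo there were 13 without C57BL6J pMo replicate 1 and 4 without C57BL6J pMo replicate 2, and in iMo 2 without DBA2J or C57BL6J iMo replicate 1. Markers of other cells differed between the strains as well. The 8 endothelial markers summed to 107 and 191 scaled TPM in DBA2J AM and to 24.2 and 36.3 in C57BL6J AM, and the 7 measured B cell markers to 385 and 166 in DBA2J pMo and to 62.7 and 92.4 in C57BL6J pMo; their part in the strain differences was not tested. Slc26a11, a carrier of sulfate and other anions, had 8.42 and 7.69 (DBA2J) and 0.174 and 0.193 (C57BL6J) scaled TPM in AM, a log2 difference of 2.93 ± 0.15 (limma, adjusted p = 1.34e-06). In IM it had 6.38 and 6.19 (DBA2J) and 10.1 and 11.5 (C57BL6J), in iMo 3.82 and 5.64 (DBA2J) and 8.27 and 8.80 (C57BL6J), and in pMo 5.29 and 5.84 (DBA2J) and 9.03 and 7.94 (C57BL6J), so DBA2J lay below C57BL6J in these 3 types. Slc7a7, the light chain of an exchanger of cationic amino acids, had 3.75 and 3.93 (DBA2J) and 14.1 and 14.8 (C57BL6J) in AM, lower in DBA2J. It had 30 and 29.6 (DBA2J) and 16.7 and 19.1 (C57BL6J) in iMo, and 25.1 and 26.5 (DBA2J) and 11.4 and 12.5 (C57BL6J) in pMo, higher in DBA2J; its span overlaps that of Oxa1l by 228 bp on the opposite strand.

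Slc37a2 had 19.7 and 17.4 (DBA2J) and 18.2 and 20.1 (C57BL6J) scaled TPM in IM, 13.2 and 12.5 (DBA2J) and 4.84 and 3.08 (C57BL6J) in iMo, and 6.17 and 6.01 (DBA2J) and 1.89 and 1.86 (C57BL6J) in pMo, with DBA2J above C57BL6J in the monocytes. A region at 19602 bp from its start was listed in all 4 DBA2J sets, with scores of 49.3 (AM), 43.6 (IM), 60.7 (iMo) and 71.7 (pMo), and in 1 C57BL6J set, IM, at 10.5. At Slc26a11 the region at -34 bp was listed in DBA2J AM (30.5) and not in C57BL6J AM. The region at -570 bp of Slc26a11 was listed in both, at 136.2 in DBA2J and 112.5 in C57BL6J. The strain difference itself differed between cell types for 13 members (9.49%, against 6.21% of genes tested). That count was 24 without C57BL6J IM replicate 1 and 23 without C57BL6J pMo replicate 1. It was 6 to 8 when any 1 of the AM libraries, the other IM libraries, the DBA2J iMo libraries or DBA2J pMo replicate 1 was left out.

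**Figure D5:**
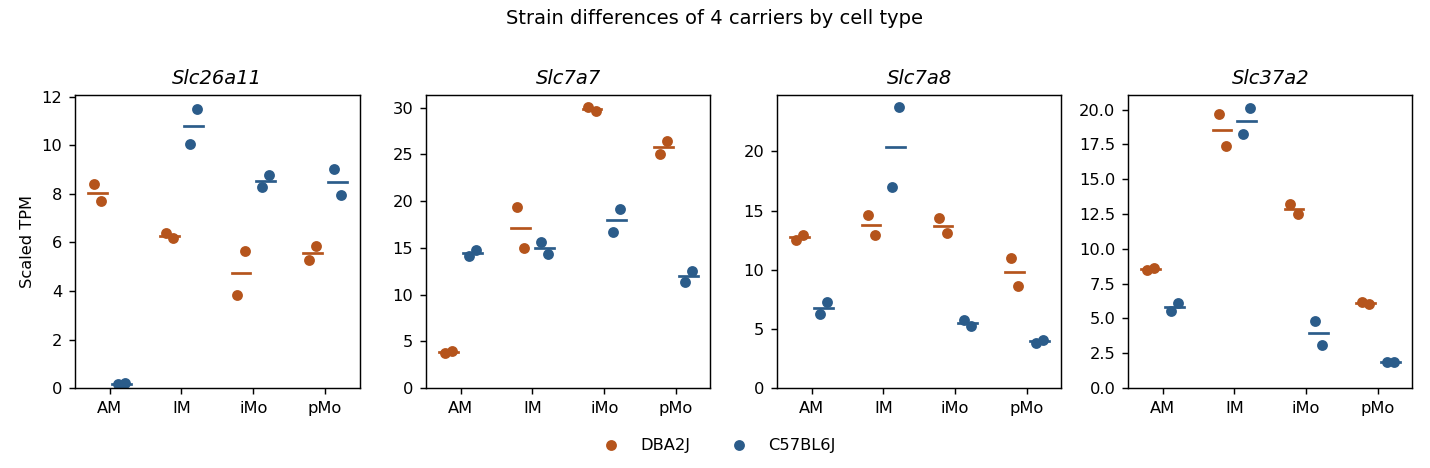
Scaled TPM of Slc26a11, Slc7a7, Slc7a8 and Slc37a2 in each library, by cell type, with DBA2J left of C57BL6J and a line at each group mean. Slc26a11 in AM is 8.42 and 7.69 (DBA2J) and 0.174 and 0.193 (C57BL6J), and Slc7a7 is lower in DBA2J AM but higher in DBA2J monocytes.

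In IM most members called for strain were lower in DBA2J. Of the members, 3 were called higher (2.19%, against 5.82% of genes tested) and 19 lower (13.9%, against 7.30%) in DBA2J IM. The same IM libraries enter AM minus IM, so the calls of these comparisons are not set against each other. Slc25a10, the mitochondrial dicarboxylate carrier, had a log2 difference of -1.82 ± 0.28 and Slc27a1 of -1.80 ± 0.22 (limma, adjusted p = 0.00291 and 8.31e-04). Of the 8 AM markers, 5 had lower means in DBA2J IM (Siglecf, Marco, Car4, Chil3 and Itgax) and 3 had higher ones (Pparg, Ear2 and Fabp4). In AM itself 6 were lower in DBA2J and 2 (Itgax and Ear2) higher. In IM, Siglecf was 6.93 and 7.24 scaled TPM in DBA2J and 21.3 and 67.4 in C57BL6J, Car4 was 2.80 and 6.51 in DBA2J and 17.8 and 42.1 in C57BL6J, and Chil3 was 35.1 and 48.3 in DBA2J and 259 and 317 in C57BL6J. The 8 AM markers summed to 1490 and 1525 in DBA2J IM and to 810 and 1284 in C57BL6J IM, of which Ear2 made 1329 and 1360 in DBA2J and 367 and 719 in C57BL6J; no AM marker was at 0 in all IM libraries. The part of alveolar macrophage RNA in these differences was not tested. The count in IM was 9 without C57BL6J IM replicate 2, 10 without either DBA2J IM library and 35 without C57BL6J IM replicate 1.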

How the data were processed

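Gene levels are TPM as the authors deposited them, 1 column per RNA-seq library; submitters' processing notes name STAR, Bowtie, HOMER and build mm10, with no role or version. Libraries were polyA-selected and strand-marked, per the labels' protocols; whether counting used strand is not stated in the sources used here. TPM lengths were the genomic span in 99.5% of rows, and whole reads could be recovered (tolerance 0.1 read). Peak lists carry a score per peak as the authors deposited it, 1 list per group.

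TPM were divided by median-of-ratios size factors. Genes with a mean of 1 TPM or more (12277) were tested on log2(scaled TPM + 1) with limma 3.58.1 (R 4.3.3), eBayes with a variance trend and 8 group means; p-values were Benjamini-Hochberg adjusted over all genes tested, and called means an adjusted p under 0.05. A fold on this scale understates the change of low genes. The fit was tested on simulated data with 200 changed genes. Substrate classes follow family numbers. Promoters are RefSeq's. Values of some members are not reported here.

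The members, gene lists and tests were chosen with earlier results of these data known. Named are the 12 highest members, up to 12 per direction in each comparison, members restricted to 1 type, members called for strain, and listed partner genes; Slc11a1 and Slc40a1 were named by prior knowledge. The voom fit on recovered reads, fits of single strains and the fit without IM were added after seeing the data. Analyses in Python 3.11.15 used pandas 2.3.3, numpy 2.4.6 and matplotlib 3.10.9.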

Additional observations from a re-analysis of the deposited data

Results flagged for a closer look

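The strain difference (DBA2J minus C57BL6J) differed between cell types for 13 members, by limma's F-test of the 3 interaction contrasts; each value is a Benjamini-Hochberg adjusted p over all genes tested. It was 1.66e-05 for Slc26a11, higher in DBA2J only in AM by sign, and 7.71e-05 for Slc7a7, lower in DBA2J in AM and higher in both monocytes. It was 0.00465 for Slc7a8 and 0.00563 for Slc37a2. Among members that were lower in DBA2J IM, it was 0.00611 for Slc27a1, 0.0174 for Slc7a2, 0.0206 for Slc25a10, 0.0281 for Slc12a7, 0.0394 for Slc38a7, 0.0464 for Slc23a2 and 0.0483 for Slc35f6. It was 0.0379 for Slc26a1, whose span overlaps that of Idua by 4916 bp on the opposite strand, and 0.0394 for Slc25a5. Without the 4 IM libraries, 4 members passed.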

How the results depend on the processing

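No member among the largest differences of a comparison changed direction under any alternative run. These members were picked by size in the same data, so a change of direction was unlikely and its absence is a description. Of their values, 22 lost the call as deposited and 25 with the replicate block, and some lost it in leave-one-out fits. Among all 96 members called for AM minus IM, 20 changed sign as deposited. As deposited, 14 members were restricted to 1 type, and 3 were called for strain in pMo. Quantile normalization gave 35 strain calls in IM and 20 for the interaction. Leaving out the ribosomal entries gave 9 strain calls over all types. Among the members at 5 TPM in each type, calls were 62 for AM minus IM, 62 for macrophages minus monocytes, 9 for strain, 5 for strain in AM, 14 in IM and 2 in iMo, 7 for the interaction, and 12 restricted; this setting has fewer members. For iMo minus pMo there were 24 calls in DBA2J alone and 28 in C57BL6J alone, with fewer samples. The voom fit called 13 in AM for strain. Without the IM libraries the interaction had 4. The cause of the other shifts was not tested.

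Leaving out 1 library each gave 90 to 100 calls for AM minus IM, 33 to 51 for iMo minus pMo, 93 to 103 for macrophages minus monocytes, 7 to 26 for strain, 2 to 10 for strain in AM, 9 to 35 in IM, 2 to 5 in iMo, 4 to 13 in pMo, 6 to 24 for the interaction, and 22 to 28 restricted. A group left with 1 library is assumed to vary like the others.

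Replicate numbers did not pair the libraries: over 12 pairs within a strain, deviations correlated at a median of 0.02, and 2 exceeded 0.1. With the replicate block, strain calls were 4 over all types, 11 in IM and 8 for the interaction. Precision is limited by 2 libraries per group and by low reads, from 687 summed for Slc16a13.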
